A study of Homo sapiens with 12 samples.

Results

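The complement and serum amyloid genes C3, CFB, C1R, C1S, CD46, CD55, CD59, SAA1 and SAA2 were examined in RNA-seq of NCM460 cells. The members were taken by gene symbol from the deposited expression table, which gave 9 of 58735 genes, each with 1 row. All 9 were among the 18079 genes with a mean of at least 0.1 FPKM over the 12 libraries, the set that was tested. FPKM counts fragments relative to the length of a gene and the depth of its library.

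NCM460 is a human cell line that the labels describe as normal colonic epithelium. The 4 groups held 3 libraries each: cells in medium alone, cells treated with TNF-α, cells treated with TNF-α and Bufotenidine (called 5-OH-TMT in the study), and TNF-α-treated cells with HTRA2 knockdown. The first 3 groups are labelled WT, and TNF-α was shared by all groups but medium. HTRA2 is a mitochondrial serine protease whose binding by 5-OH-TMT the study examined. The labels give neither a dose nor a time, do not name a control siRNA for the TNF-α libraries, and do not say which siRNA was used. Transfection and loss of HTRA2 therefore cannot be told apart here. Nothing in the labels says that the libraries of a group came from separate cultures, so p-values measure the spread between these libraries, which may be technical.

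Complement is a cascade of plasma proteins that marks and lyses microbes. The proteases C1r and C1s start the classical pathway, C3 is the component on which the pathways meet, and factor B supplies the protease of the alternative pathway that amplifies C3 cleavage. CD46, CD55 and CD59 sit on the cell surface and protect the body's own cells from this attack. Serum amyloid A proteins are acute phase proteins made mainly by liver, and epithelial cells also make them in inflammation.

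Because SAA1 and SAA2 are near copies, their sequences decide how well reads can be assigned to either gene. The coding sequences of one annotated transcript of each gene (GENCODE 29, GRCh38) are 369 bases long each and share 358 bases (97.0%). Of the 11 differing bases, 1 lies in the first 180 and 10 lie in bases 181 to 369, which are shown 5′ to 3′ on the coding strand with the differing bases in capitals.
SAA1: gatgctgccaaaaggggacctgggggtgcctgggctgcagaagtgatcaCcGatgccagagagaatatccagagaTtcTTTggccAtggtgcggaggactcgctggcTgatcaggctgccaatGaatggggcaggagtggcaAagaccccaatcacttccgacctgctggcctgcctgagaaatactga
SAA2: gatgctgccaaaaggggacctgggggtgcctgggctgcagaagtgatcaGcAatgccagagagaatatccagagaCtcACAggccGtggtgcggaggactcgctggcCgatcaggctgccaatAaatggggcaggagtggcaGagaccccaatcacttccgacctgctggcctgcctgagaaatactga
The longest stretch without a difference spans 186 bases, so a read within it cannot be assigned to one gene. The values of SAA1 and SAA2 are uncertain to that extent. SAA1 and the related SAA4 shared 69.2% of aligned positions.

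CFB was the only one of the 5 members in the RefSeq promoter table with matches to all 3 motifs searched. These promoters run from 250 bases before to 50 bases after a gene start. The motifs were the NF-κB consensus, the interferon-stimulated response element (ISRE) core and the GAS element TTCNNNGAA, on both strands. The part of the CFB promoter with the matches (GRCh38.p14, chr6:31945945-31946024, plus strand) is shown with the matches in capitals, in the order ISRE core, NF-κB consensus and GAS.
CFB: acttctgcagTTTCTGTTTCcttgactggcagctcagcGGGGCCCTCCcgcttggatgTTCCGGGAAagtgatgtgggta
These matches begin 140, 112 and 92 bases before the RefSeq start and do not overlap. In the annotation used for the expression values CFB begins earlier, at chr6:31945650, so the matches lie inside that gene span. Over all 35116 promoters of the table, 3.57% held the ISRE core, 11.3% the NF-κB consensus and 7.66% the GAS element. The 5 members had 10 windows in all. Among them, 1 window matched the ISRE core, 1 the NF-κB consensus and 4 the GAS element, in CFB, CD59 and C1R. Of these 4 windows, 2 belong to CD59, overlap and hold the same site. A match is a description of the letters and not evidence that a factor binds there.

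The libraries held 31008429 to 37624399 reads on genes. HTRA2, the targeted gene, was at 15.4, 14.0 and 14.2 FPKM with TNF-α and at 7.44, 7.18 and 7.22 FPKM in the knockdown. Epithelial markers were high, with a sum of 2194 to 2779 FPKM over 7 genes. The 6 colon markers (VIL1, CDX1, CDX2, CDH17, GPA33 and LGALS4) summed to 0 to 0.203 FPKM, and none passed the filter, whereas KRT5, KRT14 and TP63 summed to 160 to 238 FPKM. The epithelial part of the label thus held, with KRT19 low, while the colon markers were at or near 0. The 5 hepatocyte markers, which include ALB, summed to at most 0.124 FPKM. Of 6 fibroblast markers only COL1A1 passed the filter, and their sum was at most 1.14 FPKM in medium, 0.974 to 1.31 FPKM with TNF-α and 2.62 to 3.24 FPKM in the knockdown, with DCN at 0 in all libraries. CDH5 and PECAM1 passed among 3 endothelial markers, whose sum was 0.491 to 0.597 FPKM in medium, 1.42 to 1.57 FPKM with TNF-α and 2.21 to 3.62 FPKM in the knockdown. Of 5 leukocyte markers only CD14 passed, and their sum was 0.231 to 0.521 FPKM in medium, 0.0711 to 0.207 FPKM with TNF-α and 0.324 to 0.740 FPKM in the knockdown. The endothelial sum thus moved with both TNF-α and knockdown, but CDH5 carried the change. Mean CDH5 was 0.335 FPKM in medium, 1.32 FPKM with TNF-α and 2.79 FPKM in the knockdown. In the same order PECAM1 had means of 0.148, 0.112 and 0.158 FPKM. VWF, which did not pass, had means of 0.0778, 0.0573 and 0.0860 FPKM. For PECAM1 and VWF the libraries of these groups overlapped. The fibroblast and leukocyte sums of the knockdown lay above those of TNF-α without overlap. With 5-OH-TMT the leukocyte sum (0.231 to 0.332 FPKM) and the endothelial sum (1.77 to 2.01 FPKM) also lay above those of TNF-α without overlap. The fibroblast sum with 5-OH-TMT, 1.14 to 1.46 FPKM, overlapped that of TNF-α. The part of these markers in the results was not tested, and in bulk RNA more cells of a type and more RNA per cell cannot be told apart. Knockdown library 2 had 2.95% of its reads on mitochondrial genes, against 3.69% to 4.68% in the others.

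C3 and CFB, the central component and the alternative pathway protease, rose with TNF-α and rose further with HTRA2 knockdown. C3 (ENSG00000125730, chr19:6677704-6730562, minus strand, GRCh38) was at 26.1, 28.0 and 25.9 FPKM in medium and at 63.6, 65.6 and 58.6 FPKM with TNF-α. It was at 75.7, 74.4 and 84.1 FPKM with 5-OH-TMT and at 148, 116 and 158 FPKM in the knockdown. No group overlapped another. Among all genes, C3 stood at rank 1721 by mean FPKM in medium, 658 with TNF-α, 542 in the 5-OH-TMT group and 266 after knockdown. The mean rose 2.35-fold with TNF-α, from 26.7 ± 1.13 to 62.6 ± 3.63 FPKM (SD, n = 3), with a log2 fold change of 1.23 (SE 0.10, limma adjusted p = 1.88e-05). Knockdown raised it a further 2.24-fold to 140 ± 22.1 FPKM (limma adjusted p = 2.94e-05). With 5-OH-TMT the log2 difference from TNF-α was 0.32 with a 95% interval of 0.09 to 0.54, and it did not pass after adjustment (limma adjusted p = 0.139). All groups share 1 estimate of the spread, and without knockdown library 2 this difference passed (limma adjusted p = 0.0395).

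CFB (ENSG00000243649, chr6:31945650-31952084, plus strand) was far less abundant. It was at 0.0462, 0.0624 and 0.0796 FPKM in medium, which is 8, 10 and 13 reads, and at 0.475, 0.340 and 0.569 FPKM with TNF-α. The 5-OH-TMT libraries held 0.540, 0.490 and 0.690 FPKM and the knockdown libraries 3.06, 1.91 and 2.58 FPKM. The TNF-α and 5-OH-TMT values overlapped, and the other groups did not. The means rose 7.35-fold with TNF-α (limma adjusted p = 5.53e-04) and 5.46-fold from TNF-α to knockdown (limma adjusted p = 6.02e-05). From medium to knockdown the fold was 40.1. With 5-OH-TMT the log2 difference from TNF-α was 0.27, with an interval of -0.22 to 0.76 (limma adjusted p = 0.514). Of its exon bases 45.5% are shared with other annotated genes, almost all with the readthrough AL645922.1, which was listed at 0 in every library. The sources used here do not say how reads on shared bases were counted. The level of CFB and its ratio to C3 are uncertain to that extent. In FPKM, which is per length, the mean ratio of CFB to C3 was 0.00235 in medium, 0.00745 under TNF-α, 0.00731 in the 5-OH-TMT group and 0.0179 after knockdown.

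**Figure D1:**
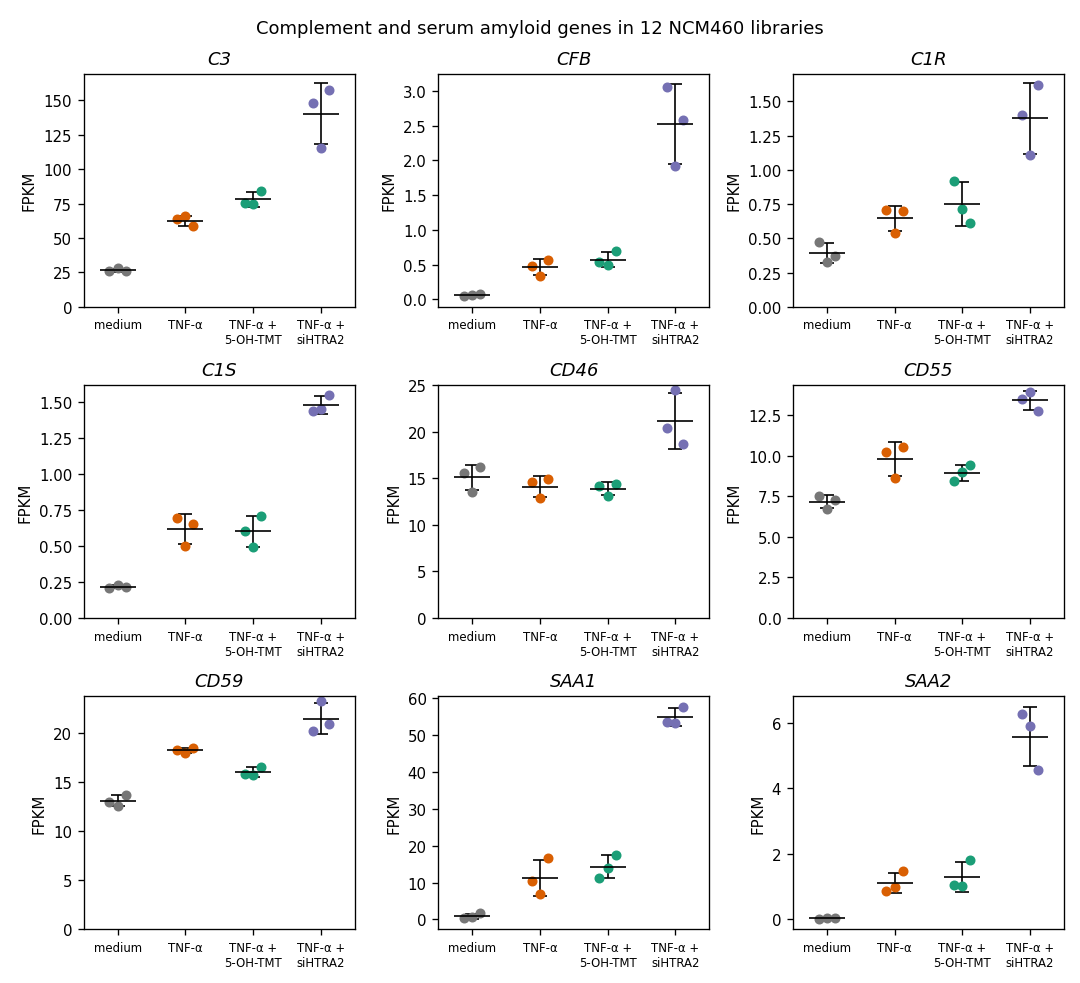
FPKM (linear vertical axes) of each gene in the 4 groups, with points for the 3 libraries of a group and black bars for the mean and SD. The knockdown libraries lie above every TNF-α library for all 9 genes, and CD46 is the only gene whose TNF-α mean lies below its medium mean.

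C1R and C1S, the proteases that start the classical pathway, lie 9166 bases apart on chromosome 12 and had low levels. C1S (ENSG00000182326, chr12:6988259-7071032, plus strand) was at 0.210, 0.227 and 0.218 FPKM in medium and at 0.696, 0.501 and 0.656 FPKM with TNF-α. It was at 0.603, 0.492 and 0.710 FPKM with 5-OH-TMT and at 1.44, 1.45 and 1.55 FPKM in the knockdown. TNF-α and 5-OH-TMT overlapped, and the other groups were apart. The mean of C1S rose 2.83-fold with TNF-α (limma adjusted p = 0.00149) and 2.39-fold from TNF-α to knockdown (limma adjusted p = 7.51e-04). The log2 difference between 5-OH-TMT and TNF-α was -0.03, with an interval of -0.40 to 0.34.

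C1R (ENSG00000159403, chr12:7080199-7092607, minus strand) was at 0.476, 0.328 and 0.375 FPKM in medium and at 0.704, 0.540 and 0.697 FPKM with TNF-α. It was at 0.923, 0.717 and 0.609 FPKM with 5-OH-TMT and at 1.40, 1.11 and 1.62 FPKM in the knockdown. Every TNF-α library was above every medium library, but the log2 difference of 0.60 (95% interval 0.17 to 1.04) did not pass over all genes (limma adjusted p = 0.141). The rise from TNF-α to knockdown passed, at 2.13-fold (limma adjusted p = 0.00541). The 5-OH-TMT libraries were above medium (log2 0.78, limma adjusted p = 0.0373) and differed from TNF-α by 0.18 on the log2 scale, with an interval of -0.26 to 0.61. The mean ratio of C1S to C1R in FPKM was 0.571 in medium (0.441 to 0.690) and 0.953 under TNF-α (0.929 to 0.989). That ratio was 0.835 in the 5-OH-TMT group (0.653 to 1.16) and 1.10 after knockdown (0.955 to 1.31). The 5-OH-TMT range overlapped that of every other group, and the TNF-α and knockdown ranges also overlapped. C1R shares 11.4% of its exon bases with C1RL and C1S shares 3.54% with EMG1, and the sources used here do not say if counting used the strand.

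The membrane regulators moved by less. CD46, the cofactor for cleavage of deposited C3b and C4b, was not called with TNF-α. CD46 (ENSG00000117335, chr1:207752057-207795513, plus strand) was at 15.5, 13.6 and 16.2 FPKM in medium and at 14.6, 12.8 and 14.9 FPKM with TNF-α. It was at 14.2, 13.1 and 14.3 FPKM with 5-OH-TMT and at 20.4, 24.4 and 18.6 FPKM in the knockdown. The first 3 groups overlapped, and all 3 knockdown libraries lay above them. The log2 difference with TNF-α was -0.10 with an interval of -0.32 to 0.13 (limma adjusted p = 0.755), and with 5-OH-TMT it was -0.02 with an interval of -0.25 to 0.21. Knockdown raised it over TNF-α by 0.58 on the log2 scale (SE 0.10, limma adjusted p = 0.00267).

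CD55, which breaks up the convertases that cleave C3, lies 365252 bases from CD46. CD55 (ENSG00000196352, chr1:207321376-207386804, plus strand) was at 7.51, 6.73 and 7.31 FPKM in medium and at 10.2, 8.64 and 10.6 FPKM with TNF-α. It was at 8.45, 9.03 and 9.43 FPKM with 5-OH-TMT and at 13.5, 14.0 and 12.8 FPKM in the knockdown. Only TNF-α and 5-OH-TMT overlapped. The mean rose 1.37-fold with TNF-α (limma adjusted p = 0.0107) and another 1.37-fold with knockdown (limma adjusted p = 0.00368). The first of these calls was lost without TNF-α library 1 (limma adjusted p = 0.0554) or 3 (0.0530), and in a fit to only medium and TNF-α (0.0907). Between 5-OH-TMT and TNF-α the log2 difference was -0.12, with an interval of -0.31 to 0.06.

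CD59, which blocks the membrane attack complex, showed small and even differences. CD59 (ENSG00000085063, chr11:33703010-33736491, minus strand) was at 13.0, 12.6 and 13.7 FPKM in medium and at 18.2, 17.9 and 18.4 FPKM with TNF-α. It was at 15.8, 15.7 and 16.5 FPKM with 5-OH-TMT and at 20.2, 23.2 and 20.9 FPKM in the knockdown. No groups overlapped, and 5-OH-TMT lay between medium and TNF-α. The mean rose 1.39-fold with TNF-α (limma adjusted p = 9.89e-04). With 5-OH-TMT the log2 value was lower than with TNF-α by a difference of -0.18 (interval -0.33 to -0.04), which did not pass after adjustment (limma adjusted p = 0.156). The knockdown was 1.18-fold above TNF-α (limma adjusted p = 0.0281), and this call was lost in 5 of 11 alternative settings and on leaving out knockdown library 2 or any 1 of the TNF-α libraries, with limma adjusted p = 0.0556 to 0.0872.

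SAA1 and SAA2 had the largest changes of the 9 genes with TNF-α. SAA1 (ENSG00000173432, chr11:18266174-18269977, plus strand) was at 0.363, 0.665 and 1.62 FPKM in medium, which is 10, 17 and 42 reads. It was at 10.4, 6.77 and 16.5 FPKM with TNF-α, at 11.4, 14.0 and 17.5 FPKM with 5-OH-TMT and at 53.5, 53.3 and 57.6 FPKM in the knockdown. Only TNF-α and 5-OH-TMT overlapped, and library 3 was the highest in each group. The mean rose 12.7-fold with TNF-α, from 0.881 ± 0.654 to 11.2 ± 4.92 FPKM (SD, n = 3; limma adjusted p = 0.00018). It rose 4.88-fold from TNF-α to 54.8 ± 2.40 FPKM in the knockdown (limma adjusted p = 0.00189). From medium to knockdown the fold was 62.2, and the fitted log2 change of 6.02 was at rank 1 of the 18079 genes tested. That rank is on log2(FPKM + 0.1) and depends on the pseudocount. By ratio of mean FPKM SAA2 rose by more, at least 137-fold. The rank of SAA1 by mean FPKM among all genes went from 11504 in medium to 3848 under TNF-α, 3222 in the 5-OH-TMT group and 782 after knockdown. The interval between 5-OH-TMT and TNF-α was wide, at -0.46 to 1.30 around a log2 difference of 0.42 (limma adjusted p = 0.585).

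SAA2 (ENSG00000134339, chr11:18239223-18248643, minus strand) lies 17530 bases from SAA1. It had 0, 2 and 2 reads in the medium libraries, at or under the floor of 3 reads per library, so folds against medium are lower bounds. It was at 0.857, 0.965 and 1.46 FPKM with TNF-α, at 1.02, 0.998 and 1.8 FPKM with 5-OH-TMT and at 6.30, 5.93 and 4.56 FPKM in the knockdown. Against medium it was at least 26.9-fold higher with TNF-α, at least 31.3-fold higher with 5-OH-TMT and at least 137-fold higher in the knockdown. From TNF-α to knockdown the mean rose 5.12-fold (limma adjusted p = 9.97e-05). The log2 difference between 5-OH-TMT and TNF-α was 0.19, with an interval of -0.35 to 0.73. In FPKM the ratio of SAA2 to SAA1 was 0.0823 to 0.143 under TNF-α, 0.0711 to 0.103 in the 5-OH-TMT group and 0.0792 to 0.118 after knockdown, so the ranges overlapped. SAA2 shares 12% of its exon bases with the readthrough SAA2-SAA4, listed at 0 in every library, and how reads on shared bases were counted is not given.

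**Figure D2:**
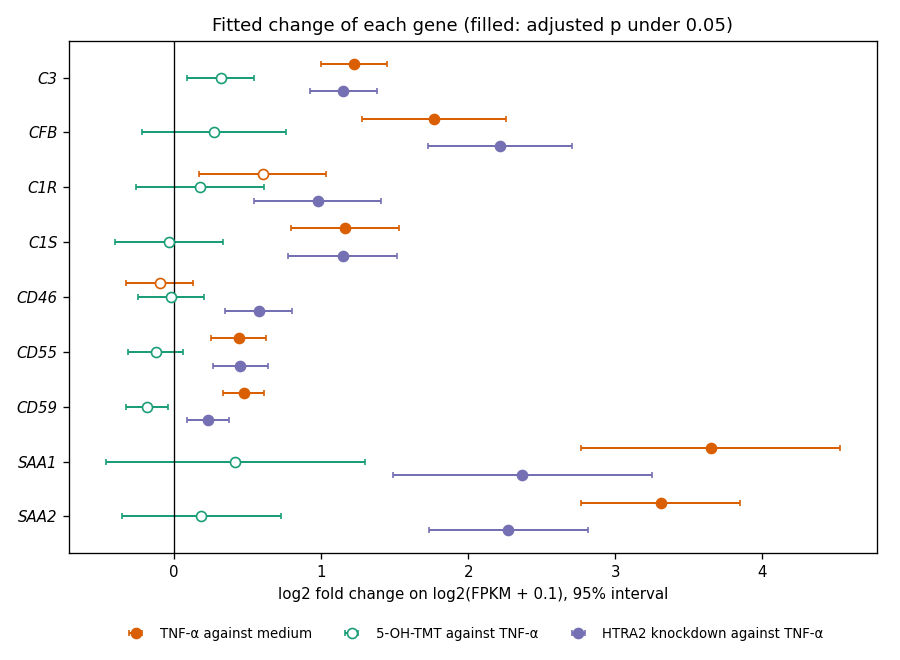
Fitted log2 fold change of each gene (horizontal axis, log2 of FPKM + 0.1) with its 95% interval for 3 comparisons, filled where the limma adjusted p is under 0.05. No 5-OH-TMT point is filled, and all 9 knockdown points are filled and to the right of 0.

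Counted together, 7 of the 9 genes rose with TNF-α and 0 fell, where 3.22% of all genes tested rose and 0.885% fell. C1R and CD46 did not pass. At the threshold of the study, which asks for a 2-fold change and an unadjusted p no higher than 0.05 and was applied here to the fitted change on log2(FPKM + 0.1), the count was 5 (C3, CFB, C1S, SAA1 and SAA2), against 1.76% of all genes. Every TNF-α library was above every medium library for 8 of the 9, against 11.1% of all genes. The median log2 change of the 9 was 1.16, beside -0.0020 over all genes tested.

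Between 5-OH-TMT and TNF-α, 0 of the 9 passed with limma, and 2 had an unadjusted p under 0.05 (C3 higher and CD59 lower), where 20.1% of all genes did. Voom on recovered reads also gave 0. Over all genes 0.0332% were called higher and 0.00553% lower. Every 5-OH-TMT library was above every TNF-α library for 1 of the 9 (C3, background 16.3%) and below for 1 (CD59, background 15.5%). The median log2 difference was 0.18, beside 0 over all genes. The upper ends of the 95% intervals ran from -0.04 in CD59 to 1.30 in SAA1 on the log2 scale.

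With HTRA2 knockdown all 9 rose over TNF-α, where 9.35% of all genes rose and 8.08% fell. The fold threshold of the study, on the fitted change, gave 5 (C3, CFB, C1S, SAA1 and SAA2), against 3.08% of all genes. C1R lay just under it, with a fitted fold of 1.97 and a ratio of mean FPKM of 2.13. Every knockdown library was above every TNF-α library for all 9, against 17.5% of all genes. The median log2 change was 1.15, beside -0.0034 over all genes. The comparisons with TNF-α share the TNF-α libraries, so their values stand side by side only.

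The remaining pairs of groups give the order of levels. Against medium, 8 of the 9 were higher with 5-OH-TMT (all but CD46, background 4.99%) and 9 of 9 in the knockdown (background 12.9%). The knockdown was above 5-OH-TMT for 9 of 9, where 7.85% of all genes were higher and 7.43% lower. The order was thus medium lowest and knockdown highest for C3, CFB, C1S, CD55, CD59, SAA1 and SAA2, with TNF-α and 5-OH-TMT as neighbours whose difference did not pass. For C1R the step from medium to TNF-α also missed the threshold, and for CD46 the 3 groups other than the knockdown could not be ordered.

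A wider list of 72 complement and acute phase genes, the 9 included, puts these values in context. Of these 25 passed the filter and 16 were at 0 in every library, among them C1QA, C1QB and C1QC, the recognition subunits of C1. Of the 16 tested genes outside the 9, TNF-α raised 3 and lowered 0, where 3.22% and 0.885% of all genes tested did so. PTX3, a secreted pentraxin, rose by 3.13 on the log2 scale (limma adjusted p = 9.54e-06), LCN2, which binds bacterial iron carriers, by 0.95 (0.0374) and SERPINA1, the inhibitor of neutrophil elastase, by 0.72 (7.82e-04). With 5-OH-TMT 0 of the 16 passed, where only 0.0332% of all genes tested were called higher and 0.00553% lower. Knockdown raised 8 and lowered 2, and 6 did not pass, where 9.35% of all genes tested rose and 8.08% fell. LCN2 rose by 3.00 (limma adjusted p = 1.42e-05), from a mean of 21.6 to 173 FPKM. Knockdown library 2 held 118 FPKM of LCN2, and knockdown libraries 1 and 3 held 200 and 202 FPKM. A2M, a broad protease inhibitor, rose by 1.91 (2.74e-04), CP, the copper carrier ceruloplasmin, by 1.68 (0.0108) and SERPINA3 by 1.24 (0.00794). CP and SERPINA3 passed the filter only through their knockdown values, so their place among the 8 raised genes depends on the filter. With TNF-α CP held 7, 1 and 20 reads and SERPINA3 24, 16 and 23 reads. SERPING1, the inhibitor of C1r and C1s, rose by 1.53 (limma adjusted p = 4.64e-05), with means of 3.29, 2.89, 3.16 and 8.56 FPKM in medium, TNF-α, 5-OH-TMT and knockdown. The 2 that fell were CFD, the protease that cleaves factor B (-0.62, limma adjusted p = 0.0439), and C1QBP (-0.68), named here after their values were seen.

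**Figure D3:**
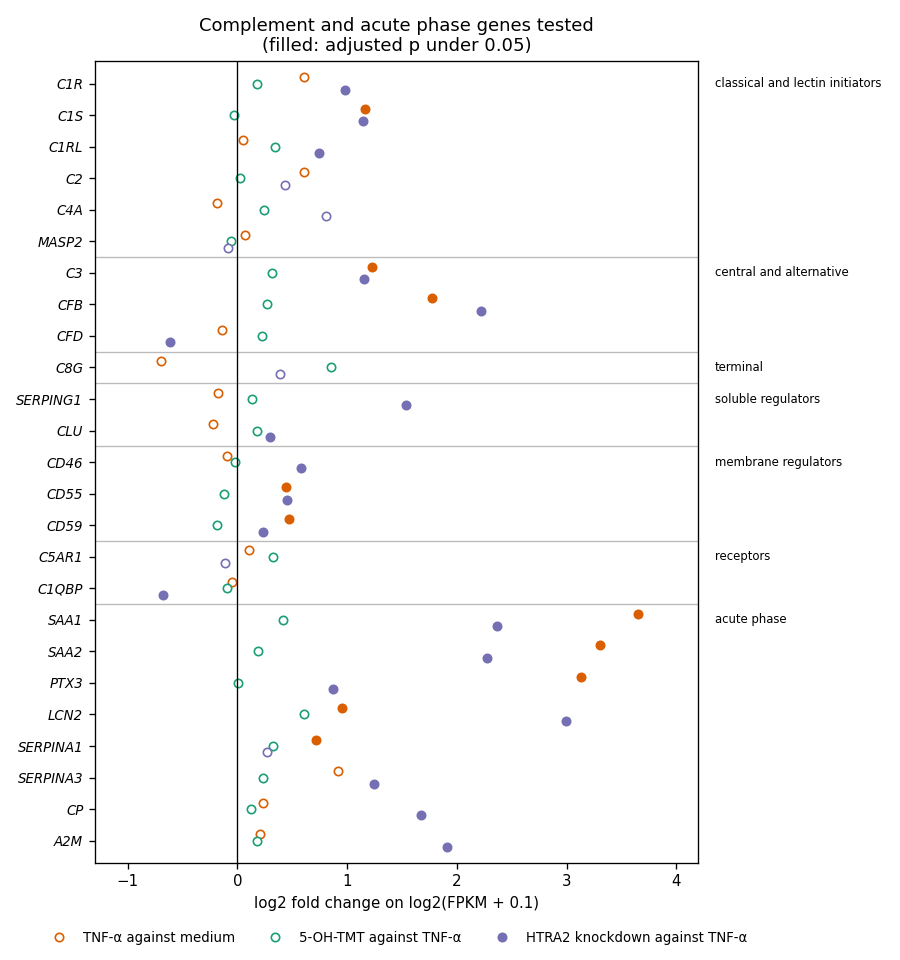
Fitted log2 fold change (horizontal axis, log2 of FPKM + 0.1) of the 25 tested complement and acute phase genes by class, for the same 3 comparisons, filled where the limma adjusted p is under 0.05. Knockdown points are filled to the right of 0 for 17 genes and to the left for 2. Of the 17, CP and SERPINA3 passed the filter only through their knockdown values.

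Over the 12 libraries the log2 levels of the 9 genes were positively correlated, with CD46 the least close to the others. Pearson's r of CD46 with the other 8 was 0.50 to 0.75, and among those 8 it was 0.83 to 0.99. The libraries share their groups, so these are descriptions. Of 11179 genes with a mean of at least 1 FPKM, those most like C3 were STAT3 (r = 0.996) and PARP12 (r = 0.996). For SAA1 they were CCDC71L (r = 0.984) and BMP2 (r = 0.983), and for SAA2 CXCL8 (r = 0.996) and PLAU (r = 0.994). CD55 was nearest to SP100 (r = 0.994) and SDCBP (r = 0.982), CD59 to UBE2H (r = 0.990) and CD47 (r = 0.986), and CD46 to CLIP1 (r = 0.977) and ADAM10 (r = 0.970).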

How the data were processed

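Poly(A)-selected RNA of 12 libraries was sequenced, and the authors deposited FPKM per gene and library with gene lengths. The submitters' processing notes name CASAVA 1.8, HISAT2 2.0.4, HTSeq 0.9.1 and hg38, and strandedness is not given in the sources used here. Coordinates of 99.98% of genes matched GENCODE 29. Multiplying FPKM by gene length and by a divisor estimated per library from its smallest step gave whole reads (tolerance 0.1) for 100% of values. Replicates differed by more than counting error, with a chi-square per degree of freedom of 6.87 to 40.8 between pairs within a group. The highest values, 31.4 and 40.8, were those of the pairs with knockdown library 2, against 6.87 for the other knockdown pair.

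Log2(FPKM + 0.1) of the genes averaging at least 0.1 FPKM was fitted with limma 3.58.1 in R 4.3.3 (1 mean per group, eBayes with trend, 8 residual degrees of freedom), two-sided, with Benjamini-Hochberg adjustment over all genes tested and a threshold of 0.05. The pseudocount shrinks changes of low genes, so fold values are ratios of mean FPKM. An exact permutation test of 3 against 3 cannot go below p = 0.1. The fit was tested on simulated data. Alternatives changed the pseudocount, filter, scaling, libraries, trend, replicate block and unit (voom on recovered reads). Named were the members, HTRA2, up to 5 called genes of the wider list per comparison, and the 2 genes most correlated with each member of at least 1 FPKM. The members and lists were chosen with earlier results of these data known.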

Additional observations from a re-analysis of the deposited data

How the results depend on the processing

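Over the 11 alternatives with all libraries kept, the number of the 9 genes called was 5 to 7 with TNF-α, 0 with 5-OH-TMT and 6 to 9 with knockdown. The lowest counts came with a filter of a mean FPKM of at least 1, which left 6 of the 9 to test. With 1 library left out the counts were 6 to 7, 0 to 1 and 8 to 9, and for the wider list 8 to 10, 0 to 1 and 15 to 20. The 1 with 5-OH-TMT was C3, without knockdown library 2. The sign of 3 differences between 5-OH-TMT and TNF-α, none of which passed, turned when 1 library was left out: C1S was between -0.157 and 0.082 (0.046 without TNF-α library 1, 0.0082 without TNF-α library 3), CD46 between -0.086 and 0.021 (0.0059 without TNF-α library 1, 0.020 without 5-OH-TMT library 2) and SAA2 between -0.072 and 0.394. The cause was not tested. The fitted log2 change of CFB with TNF-α was 0.46 to 2.85 and that of SAA2 1.03 to 5.79 over pseudocounts and voom, and their calls held. The main fit did not pair libraries by replicate number. For TNF-α with medium, correlations of same-numbered deviations were 0.0647 to 0.151. There 6 of 6 libraries correlated best with their own number, so these 2 groups may be paired. Correlations were -0.0505 to 0.0902 for 5-OH-TMT with TNF-α and -0.212 to 0.108 for knockdown with TNF-α. In these comparisons 3 and 2 of 6 libraries correlated best with their own number. With the replicate block 7, 0 and 8 of the 9 genes were called, and the call that differed was CD59 in the knockdown (limma adjusted p = 0.0556). Depth limits SAA2 and CFB in medium, with at most 2 and 13 reads.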
